A study of Mus musculus with 4 samples.

Results

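Disallowed genes are genes that most tissues express and that mature pancreatic beta cells keep at very low levels. The set described here was 10 such genes, chosen by symbol: Ldha, Slc16a1, Hk1, Pdgfra, Igfbp4, Oat, Cat, Acot7, Smad3 and Cxcl12. All 10 were among the 31017 gene names of the deposited tables. Their counts come from bulk RNA sequencing of 4 libraries of sorted mouse beta cells, 2 of which held CD63 high and 2 CD63 low cells. Both groups were wild type cells from the islets of C57BL/6J males aged 10 weeks, held in culture overnight before the sort, and they differed by label only in surface CD63. Labels describe no gate other than CD63 and leave unsaid whether each library had its own animals or its own sort. P-values therefore measure only the spread between these libraries, which may be technical.

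A beta cell reads blood glucose by burning it. Glycolysis turns glucose into pyruvate, which then enters the mitochondria, where its oxidation yields the ATP that triggers insulin release. Lactate dehydrogenase A would divert pyruvate to lactate, the monocarboxylate transporter MCT1 (Slc16a1) would let pyruvate and lactate from working muscle in or out, and the high-affinity hexokinase HK1 would phosphorylate glucose even at fasting levels. Keeping these genes silent ties secretion to glucose, and forced expression of Slc16a1 or Hk1 in beta cells is known to cause release of insulin at the wrong time. The other members cover growth factor signalling (Pdgfra, Igfbp4, Smad3, Cxcl12) and other metabolism (Oat, Cat, Acot7).

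Total counts were 29249270 to 35003307 per library, and 3 counts, the limit that a count of 0 allows, stood for 0.0770 to 0.108 CPM (counts scaled to library depth, with TMM factors that correct for composition). Intervals and this limit cover counting error only. Cd63 itself stood at 1974 and 2077 CPM for CD63 high compared with 1186 and 1120 CPM for the CD63 low libraries (fitted log2 fold change 0.81, SE 0.19, edgeR adjusted p 0.0484), which is the check of the sort at the RNA level. That call ended in 6 of 12 alternatives, among them leaving out CD63 high replicate 1 (edgeR adjusted p 0.0531), CD63 high replicate 2 (0.179) or CD63 low replicate 2 (0.0850), with values of 0.77 to 0.85. Transcripts known from macrophages and from other islet and exocrine cells were present in all 4 libraries. The 16 macrophage markers summed to 165.6 and 590 CPM for CD63 high replicates 1 and 2 compared with 27.9 and 41.3 CPM for CD63 low replicates 1 and 2, and 12 of the 16 rose. None of the 16 was at 0 in all 4. Since these are bulk samples, more cells of another type and more RNA per cell cannot be told apart.

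Of the 10 genes, 3 rose in CD63 high cells (Ldha, Igfbp4 and Hk1), 4 did not pass the test (Acot7, Cat, Oat and Cxcl12) and 3 were too low to test (Smad3, and Slc16a1 and Pdgfra with no count in any library). The test was edgeR's quasi-likelihood test over 13241 genes with Benjamini-Hochberg adjustment and a threshold of 0.05, and 2.79% of all tested genes were called by it, 2.5% as higher in CD63 high. Hk1, Igfbp4, Acot7 and Cxcl12 reached the filter on low counts only through the CD63 high libraries, so a difference in that direction was built into their entry and their share and median are given as descriptions only. Ldha, Cat and Oat reached it in both groups. Among the called genes described below, Slc16a3, Galk1, Igf1, Cxcl14, Tgfb1, Tgfbr2 and Mgst1 also reached it only through the CD63 high libraries, with the same limit. The median log2 fold change of the 7 tested members was 4.17 against -0.01 over all tested genes. It was also 4.17 with 3 counts taken for Hk1 over the CD63 low group. All 7 had a value above 0, as did 48.6% of all tested genes. With library size as the only scaling, edgeR called 0 of the 7 and 0.506% of all tested genes, and 4 of the 7 had an unadjusted p under 0.05, as did 11.8% of all tested genes. DESeq2 called 4 members and 5.18% of all tested genes, and limma-voom 2 members and 2.14%.

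**Figure D1:**
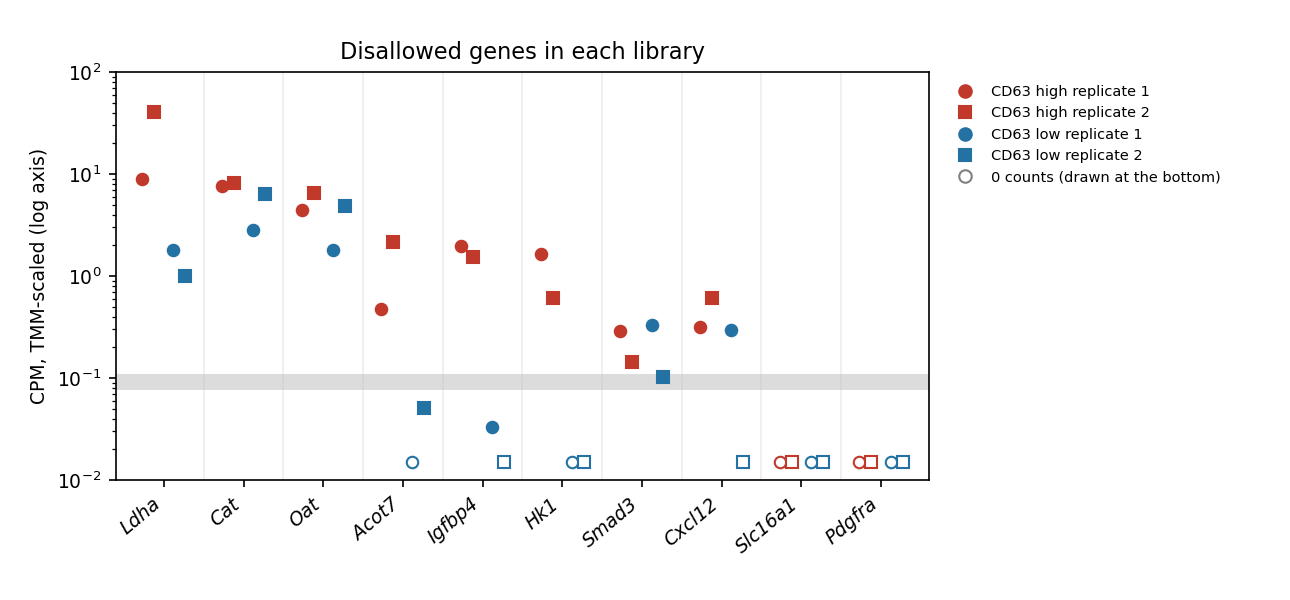
TMM-scaled CPM (log axis) of the 10 genes in each library, ordered by mean level per length, with CD63 high in red and CD63 low in blue, replicate 1 as circles and replicate 2 as squares. The grey band is the limit of 3 counts (0.0770 to 0.108 CPM) and open symbols are libraries with 0 counts; Slc16a1 and Pdgfra have open symbols only, and Ldha in CD63 high replicate 2 stands highest at 40.7 CPM.

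Compared per length, in length-normalised transcript units (TPM) averaged over the 4 libraries, Ldha had the highest level of the 10 at 5.90, followed by Cat at 3.85 and Oat at 2.99. In the CD63 low libraries Ldha ranked below them, with a mean of 0.663 TPM against 3.04 for Cat and 2.45 for Oat. Acot7 at 0.467 TPM, Igfbp4 at 0.311 and Hk1 at 0.104 followed on the mean over the 4 libraries. Smad3 and Cxcl12 came next at 0.0604 and 0.0560 TPM, a difference smaller than the spread of either over the libraries. The ranges of Cat (1.52 to 4.75 TPM) and Oat (1.09 to 4.01 TPM) also overlapped.

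Ldha encodes the muscle-type subunit of lactate dehydrogenase, which turns pyruvate into lactate. The gene lies on chromosome 7 (46841475 to 46855627, plus strand, mm10). Its level was 8.97 and 40.7 CPM in CD63 high replicates 1 and 2, from 281 and 1128 counts. In CD63 low replicates 1 and 2 it was 1.78 and 1.00 CPM, from 54 and 39 counts. Both CD63 high libraries lay above both CD63 low libraries, with CD63 high replicate 2 far above replicate 1. Ldha has processed pseudogenes that can share its reads, so its counts are uncertain to that extent. The fold change was 18.02 (log2 4.17, SE 0.64, edgeR adjusted p 0.00698). Without CD63 high replicate 2 the log2 fold change was 2.70 and without CD63 high replicate 1 it was 4.89, and Ldha was called in both fits, which rest on 1 CD63 high library each. The call ended with limma-voom (adjusted p 0.0528), with library size as the only scaling (edgeR, 0.0570) and in a robust edgeR fit (0.0904).

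Slc16a1, on chromosome 3 (104638668 to 104658462, plus strand, mm10), had 0 counts in each of the 4 libraries. At 3 counts this allows up to 0.0958 and 0.108 CPM for CD63 high compared with 0.0989 and 0.0770 CPM for CD63 low replicates 1 and 2, so a difference between the groups below these levels was not detectable. Bsg, which encodes basigin, the chaperone that carries monocarboxylate transporters to the cell surface, was abundant at 632 ± 84.7 CPM for CD63 high compared with 584 ± 65.2 CPM for CD63 low cells (means with SD over n = 2). Slc16a3, which encodes MCT4, the transporter of lactate-exporting cells, had 71 and 107 counts for CD63 high libraries compared with 0 for both CD63 low libraries. It rose, and its pooled, scaled CD63 high counts were 69.7-fold above 3 counts over the CD63 low group (edgeR adjusted p 0.00422). This fold and the like ones below bound the CD63 low side only. They take the CD63 high counts as observed, without their counting error or spread. Slc16a3 was called in each of the 12 alternative analyses, which reuse the same counts. Slc16a3 reached the filter only through the CD63 high libraries, so this direction was built into its entry. Of these 2 transporter genes, Slc16a3 had counts, in CD63 high libraries, and Slc16a1 had none.

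Sequences upstream of both lactate genes are shown because they carry like motifs while the genes' counts differ. These are the 250 bases before the RefSeq transcript start (GRCm38.p6, mm10) on the gene's strand, with ACGTG or GCGTG on either strand, the core letters of the hypoxia response element, in capitals; CACGTG, the E-box, contains ACGTG on both strands. The Igfbp4 window is added as a called gene that has neither core. For Ldha the window is chr7:46845554-46845803 (plus strand), at the upstream one of 2 RefSeq starts, which lies inside the gene span of the deposited tables. For Slc16a1 it is chr3:104638414-104638663 and for Igfbp4 chr11:99040994-99041243, both on the plus strand.
Ldha: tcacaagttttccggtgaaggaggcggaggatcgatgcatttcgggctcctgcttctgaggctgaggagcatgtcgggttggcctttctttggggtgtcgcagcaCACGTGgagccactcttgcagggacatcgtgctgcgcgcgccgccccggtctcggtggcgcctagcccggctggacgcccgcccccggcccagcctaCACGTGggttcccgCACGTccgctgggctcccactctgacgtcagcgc
Slc16a1: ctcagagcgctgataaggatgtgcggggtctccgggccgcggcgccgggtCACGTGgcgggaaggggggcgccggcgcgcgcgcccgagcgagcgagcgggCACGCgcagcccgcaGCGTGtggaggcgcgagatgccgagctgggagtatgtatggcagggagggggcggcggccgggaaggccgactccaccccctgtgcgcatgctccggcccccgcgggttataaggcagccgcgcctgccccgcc
Igfbp4: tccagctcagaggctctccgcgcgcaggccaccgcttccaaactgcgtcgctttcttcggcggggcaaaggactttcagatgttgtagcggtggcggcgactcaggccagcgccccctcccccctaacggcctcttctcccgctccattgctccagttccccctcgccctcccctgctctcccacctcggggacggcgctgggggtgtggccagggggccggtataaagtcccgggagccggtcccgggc

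The Ldha window shown held CACGTG at 2 places, 145 and 48 bases before the start, and a further ACGTG core 34 bases before it. The window of the other Ldha start, not shown, held neither CACGTG nor ACGTG, 1 GCGTG core and 9 CG. In Slc16a1, CACGTG stood 200 bases before the start and GCGTG cores 149 and 134 bases before it. Igfbp4 held none of these letters. Over 32851 RefSeq windows of the same length, ACGTG occurred in 16.6%, GCGTG in 28.2% and CACGTG in 6.02%. The dinucleotide CG, where mouse DNA is methylated, occurred 25 times in the Ldha window shown, 37 times in the Slc16a1 and 22 times in the Igfbp4 window, against a median of 6. Pdgfra, the other member with no count, had 4. A match of letters is a description of the window and not a binding site.

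Other genes that handle pyruvate and lactate mostly did not pass the test. Of 18 listed, 16 were tested, Slc16a3 rose, none fell and 15 missed the threshold (median of the fitted log2 values 0.15). DESeq2 and limma-voom each called 1 as well. Ldhb, which encodes the heart-type subunit, stood at 9.38 and 7.80 CPM for CD63 high compared with 7.81 and 9.73 CPM for CD63 low replicates 1 and 2 (fitted log2 fold change -0.03, SE 0.30, edgeR adjusted p 0.981). The groups overlapped, and the sign of this value turned without CD63 high replicate 2 (0.10) or CD63 low replicate 2 (0.15). Per length, Ldha therefore made up 31.2% and 71.2% of Ldha plus Ldhb for CD63 high compared with 9.75% and 4.65% for the CD63 low libraries. Emb, which encodes embigin, another transporter chaperone, stood at 205 to 231 CPM over the 4 libraries and did not pass. Of 9 genes of the shuttles that carry cytosolic NADH into mitochondria, among them Mdh1 and Mdh2, edgeR called 0, 0 had an unadjusted p under 0.05, and DESeq2 and limma-voom called 0.

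**Figure D2:**
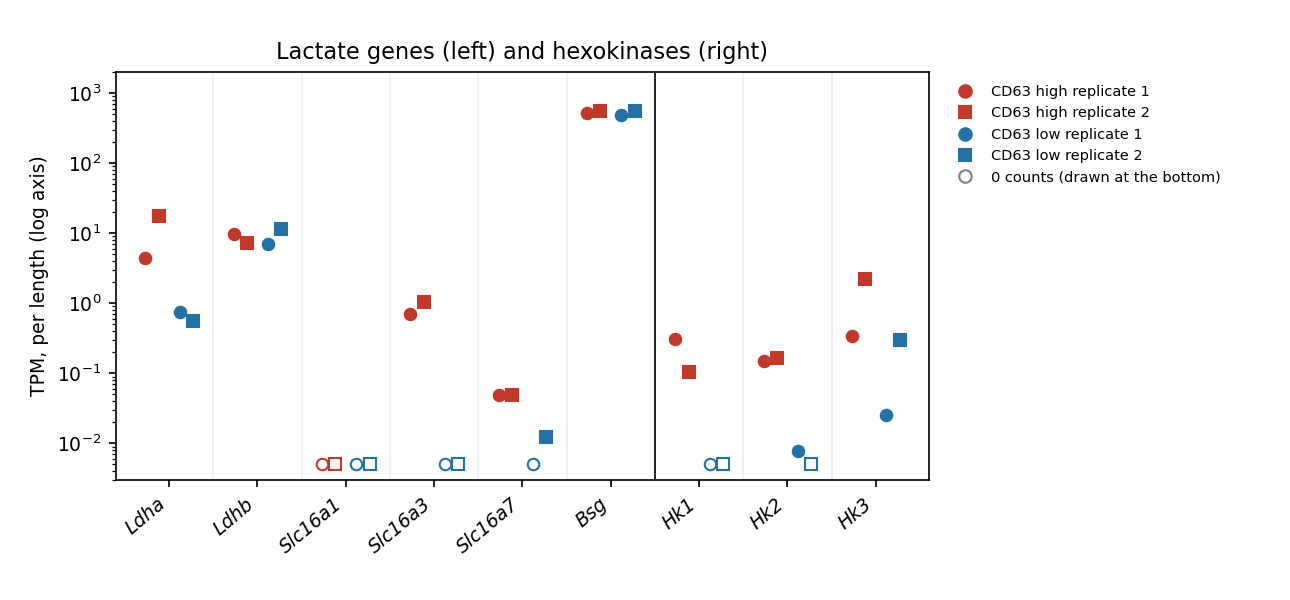
TPM per library (log axis) of the lactate genes and of Hk1, Hk2 and Hk3, with symbols as for CPM by library and libraries with 0 counts drawn open at the bottom. Ldhb and Bsg overlap between the groups, whereas Slc16a3 and Hk1 have counts only in the CD63 high libraries.

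Hk1, which encodes the high-affinity hexokinase of brain and red cells, lies on chromosome 10 (62268855 to 62379908, minus strand, mm10). It had 51 and 17 counts in CD63 high replicates 1 and 2 (1.63 and 0.614 CPM) and 0 in both CD63 low libraries. Every CD63 high library thus lay above the limit of 3 counts. Hk1 rose, with pooled, scaled CD63 high counts 26.6-fold above 3 counts over the CD63 low group (edgeR adjusted p 0.0321). Without CD63 high replicate 1 the edgeR adjusted p was 0.168 and the call ended, as it did without CD63 low replicate 2 (0.0574) and with library size as the only scaling (0.104). An antisense gene, Hk1os, shares 157 exonic bases with Hk1, and counting used no strand; Hk1os had 2 counts in CD63 high replicate 1 and 0 elsewhere.

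Both Hk2 and Hk3 also had low counts. Hk2, the insulin-regulated hexokinase of muscle and fat, had 17 and 19 counts for CD63 high compared with 1 and 0 for CD63 low libraries (edgeR adjusted p 0.0945). Hk3, the hexokinase of myeloid cells, reached 0.766 and 5.63 CPM for CD63 high compared with 0.0659 and 0.590 CPM for CD63 low libraries (edgeR adjusted p 0.151), and DESeq2 called it (0.0265). Of 8 listed hexose kinases and regulators, 7 were tested, none fell and Galk1, galactokinase, rose. It had 16 and 37 counts against 0 and 0. Pooled and scaled, this was 20.7-fold above 3 counts over the CD63 low group (edgeR adjusted p 0.0444). Galk1 lost its call when the fit left out CD63 high replicate 2 (edgeR adjusted p 0.250), CD63 low replicate 1 (0.0663) or CD63 low replicate 2 (0.113). Khk, ketohexokinase, had a log2 fold change of -0.78 and did not pass.

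Igfbp4 encodes a secreted protein that binds insulin-like growth factors and keeps them from their receptor. The gene lies on chromosome 11 (99041244 to 99054392, plus strand, mm10). It had 61 and 43 counts in CD63 high replicates 1 and 2 (1.95 and 1.55 CPM) against 1 and 0 in CD63 low replicates 1 and 2. The CD63 high libraries lay close together, and both lay far above the limit of 3 counts. The ratio of the pooled, scaled counts was 122, with a 95% exact interval of 21.4 to 4868 (fitted log2 fold change 6.56, or 8.84 without CD63 low replicate 1; edgeR adjusted p 0.0139). Igfbp4 kept the call without any 1 of the 4 libraries (edgeR adjusted p 0.00312 to 0.0211) and lost it with library size as the only scaling (0.0570).

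In the wider group of insulin-like growth factor genes, 9 of 16 were tested, Igf1 rose, none fell and 8 missed the threshold (median of the fitted log2 values 0.24). Igf1, the growth factor itself, had 72 and 96 counts for CD63 high compared with 0 for both CD63 low libraries. Pooled and scaled, this was 65.7-fold above 3 counts over the CD63 low group (edgeR adjusted p 0.00431). Igfbp7, the binding protein gene with the highest level per length in that list, stood at 131 ± 36.5 CPM for CD63 high compared with 210.4 ± 54.9 CPM for CD63 low cells (means with SD over n = 2; edgeR adjusted p 0.219). Igfals, which encodes the acid-labile subunit that carries the growth factors in blood, did not pass either (0.763).

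Cxcl12 encodes a chemokine that attracts cells bearing the receptor CXCR4 and is made mostly by stromal cells. On chromosome 6 (117168535 to 117181367, plus strand, mm10), it had 10 and 17 counts for CD63 high compared with 9 and 0 for CD63 low replicates 1 and 2. The lowest CD63 high value, 0.319 CPM, lay just above the highest CD63 low value, 0.297 CPM, and their 95% exact intervals, 0.153 to 0.587 and 0.136 to 0.563 CPM, overlapped. It did not pass (fitted log2 fold change 1.69, SE 1.35, edgeR adjusted p 0.633), and the value was 0.66 without CD63 low replicate 2 and 6.94 without CD63 low replicate 1. Of its 5 listed partners and relatives, Cxcl14, another chemokine, rose, with 38 and 70 counts against 1 and 2 (fitted log2 fold change 5.32, SE 0.98, edgeR adjusted p 0.0169; 0.160 without CD63 high replicate 2). The receptor genes Cxcr4 and Ackr3 were too low to test, Ackr3 with 0 counts in each library, and Dpp4 and Hmgb1 did not pass.

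Pdgfra encodes the alpha receptor for platelet-derived growth factor, which young beta cells use to proliferate and which marks mesenchymal cells. Like Slc16a1 it had 0 counts in all 4 libraries (chromosome 5, 75152292 to 75198215, plus strand, mm10), below the same limits of 0.0770 to 0.108 CPM. Pdgfrb, the beta receptor gene, had 3 counts in CD63 high replicate 2 and 0 elsewhere. Pdgfa, a ligand gene, stood at 22.5 and 18.4 CPM for CD63 high compared with 15.4 and 17.2 CPM for CD63 low replicates 1 and 2 and did not pass (edgeR adjusted p 0.592). Pdgfrl, a receptor-like gene, stood at 7.12 to 10.7 CPM over the 4 libraries. Of 6 genes of the pathway, 3 were tested and edgeR called 0; 0 had an unadjusted p under 0.05, and DESeq2 and limma-voom called 0. Both receptor genes were thus near or below detection while a ligand gene was expressed in both groups.

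Smad3 encodes a transcription factor that carries the TGF-beta and activin signal to the nucleus. On chromosome 9 (63646767 to 63757994, minus strand, mm10), it had 9 and 4 counts for CD63 high compared with 10 and 4 for CD63 low replicates 1 and 2. The values of the groups covered the same range, 0.144 to 0.287 CPM in CD63 high and 0.103 to 0.330 CPM in CD63 low, and the gene failed the filter. The ratio of the pooled, scaled counts was 1.09, with a 95% exact interval of 0.472 to 2.50, which limits any difference only to within that range and covers counting error alone.

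Around Smad3, 20 of 23 genes of the TGF-beta pathway were tested, 2 rose, none fell and 18 did not pass, with a median log2 fold change of -0.21. Those that rose were a ligand and a receptor. Tgfb1 had 44 and 93 counts for CD63 high compared with 6 and 7 for CD63 low replicates 1 and 2 (fitted log2 fold change 3.63, SE 0.79, edgeR adjusted p 0.0364). Tgfbr2, the type II receptor gene, had 54 and 17 counts for CD63 high compared with 0 for both CD63 low libraries. Pooled and scaled, this was 27.8-fold above 3 counts over the CD63 low group (edgeR adjusted p 0.0309). Tgfb1 lost its call when CD63 high replicate 2 was left out (edgeR adjusted p 0.372) and Tgfbr2 when CD63 high replicate 1 was (0.168). The partner Smad4 and the related Smad1 were the most abundant of the list per length, at 9.99 and 10.8 TPM over the 4 libraries, and did not pass.

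Acot7 encodes an acyl-CoA thioesterase, which splits long-chain acyl-CoA into free fatty acid and coenzyme A, and is known mainly from neurons. On chromosome 4 (152178134 to 152271855, plus strand, mm10), it had 15 and 59 counts for CD63 high compared with 0 and 2 for CD63 low replicates 1 and 2 (0.479 and 2.13 against 0 and 0.0514 CPM). Both CD63 high libraries lay above the CD63 low ones, and replicate 2 was the higher in each group. The ratio of the pooled, scaled counts was 43.4 (95% exact interval 11.6 to 365). The gene missed the threshold (edgeR adjusted p 0.0610), whereas DESeq2 called it (0.0122); over the alternatives the adjusted p ran from 0.00187 to 0.556. Leaving out CD63 high replicate 1 (edgeR adjusted p 0.00236) or CD63 low replicate 2 (0.0403) brought Acot7 past the threshold, and leaving out CD63 high replicate 2 gave 0.556. Among 9 tested of 12 related thioesterases, Acot9, a mitochondrial one, rose from 3.06 ± 0.150 to 9.52 ± 1.30 CPM (means with SD over n = 2, and a log2 fold change of 1.64, SE 0.33, edgeR adjusted p 0.0259), none fell and 8 did not pass. Acot13 and Acot8 had the highest levels per length of that list and log2 fold changes of 0.16 and 0.06.

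Cat encodes catalase, which removes hydrogen peroxide in peroxisomes and whose low level leaves beta cells poorly protected from peroxide. On chromosome 2 (103453849 to 103485160, minus strand, mm10), it stood at 7.56 and 8.24 CPM for CD63 high compared with 2.80 and 6.39 CPM for CD63 low replicates 1 and 2. The groups did not overlap. The same held for 6 of the 7 tested members (not Oat), each higher in CD63 high, against 46% of all tested genes in either direction and 23.8% in that direction. For Hk1, Igfbp4, Acot7 and Cxcl12 this was built into their entry through the filter, so the share is a description only. Ldha and Cat reached the filter in both groups. For Cat, CD63 low replicate 2 came close to the CD63 high libraries. The difference did not pass (fitted log2 fold change 0.77, SE 0.41, edgeR adjusted p 0.419; 1.51 without CD63 low replicate 2 and 0.30 without CD63 low replicate 1). Of 17 other genes of peroxide and superoxide removal 15 were tested, Gpx3, a secreted glutathione peroxidase, rose (fitted log2 fold change 3.09, SE 0.26, edgeR adjusted p 0.000757), none fell and 14 did not pass. Gpx1 and Prdx1, the most abundant of the list per length, had log2 fold changes of 1.03 and 0.59 and did not pass (edgeR adjusted p 0.0725 and 0.274). At 3.85 TPM over the 4 libraries, Cat stood far below Gpx1 at 201.6 TPM and Prdx1 at 198 TPM.

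Oat encodes ornithine aminotransferase, a mitochondrial enzyme that links ornithine to glutamate and proline. On chromosome 7 (132557478 to 132576398, minus strand, mm10), it stood at 4.41 and 6.54 CPM for CD63 high compared with 1.81 and 4.83 CPM for CD63 low replicates 1 and 2. The groups overlapped, with CD63 low replicate 2 above CD63 high replicate 1. The difference did not pass (fitted log2 fold change 0.71, SE 0.48, edgeR adjusted p 0.560), and the value was 1.61 without CD63 low replicate 2 and 0.17 without CD63 low replicate 1. Of 12 tested among 14 genes of ornithine, proline and arginine metabolism, 2 rose, none fell and 10 did not pass. Arg1, which splits arginine to ornithine, rose from 2.77 ± 0.181 to 13.7 ± 4.48 CPM (means with SD over n = 2, and a log2 fold change of 2.30, SE 0.34, edgeR adjusted p 0.00620), and Odc1, which turns ornithine into putrescine, rose by a log2 fold change of 1.33 (SE 0.26, edgeR adjusted p 0.0207). The call of Odc1 ended without CD63 high replicate 1 (fitted log2 fold change 0.89, edgeR adjusted p 0.107). The genes that rose make or use ornithine, while Oat itself did not pass. Glul, glutamine synthetase, among the most abundant of the list per length, did not pass either.

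**Figure D3:**
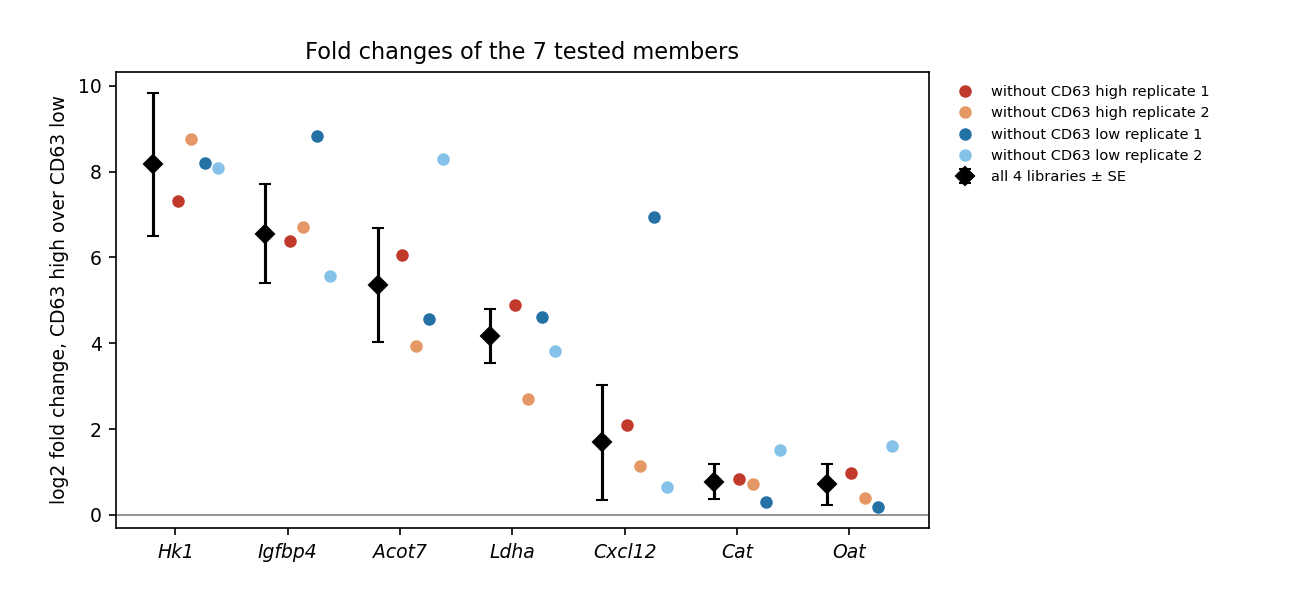
Log2 fold change of CD63 high over CD63 low for the 7 tested members, with all 4 libraries (black diamonds, bars ± SE) and with each library left out (coloured points). Ldha ranges from 2.70 to 4.89; for Hk1, Igfbp4 and Acot7, near 0 counts in CD63 low, the fitted values depend on the prior count and show direction more than size.

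A further 18 genes taken as candidates for the disallowed class also had low counts, at most 204 in a library. Of these, 13 were tested, 2 rose, none fell and 11 did not pass. Their median log2 fold change was 3.85, or 3.50 with 3 counts taken for Itih5 over the CD63 low group. Several of the 13, Mgst1 and Itih5 among them, reached the filter only through the CD63 high libraries. A difference in that direction was built into their entry, so the counts and median of this list are descriptions only. Mgst1, a microsomal glutathione transferase gene, had 67 and 152 counts for CD63 high compared with 0 and 6 for CD63 low replicates 1 and 2 (fitted log2 fold change 5.45, SE 0.97, edgeR adjusted p 0.0144). Arhgdib, a regulator of small GTPases in blood cells, had 47 and 204 counts for CD63 high compared with 2 and 18 for CD63 low libraries (fitted log2 fold change 3.99, SE 0.92, edgeR adjusted p 0.0483; 2.46 and 0.452 without CD63 high replicate 2). The call of Mgst1 ended with limma-voom (adjusted p 0.0563) and with library size as the only scaling (edgeR, 0.0911). Its log2 fold change was 9.83 without CD63 low replicate 2. The call of Arhgdib ended in 4 of 12 alternatives, among them library size as the only scaling (edgeR adjusted p 0.179), limma-voom (0.166) and the robust edgeR fit (0.0623). Those that did not pass included Lmo4, at 2.36 to 3.61 CPM over the 4 libraries. DESeq2 called 5 of the 18 and limma-voom 0, and 8 had an unadjusted edgeR p under 0.05, against 14.9% of all tested genes.

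**Figure D4:**
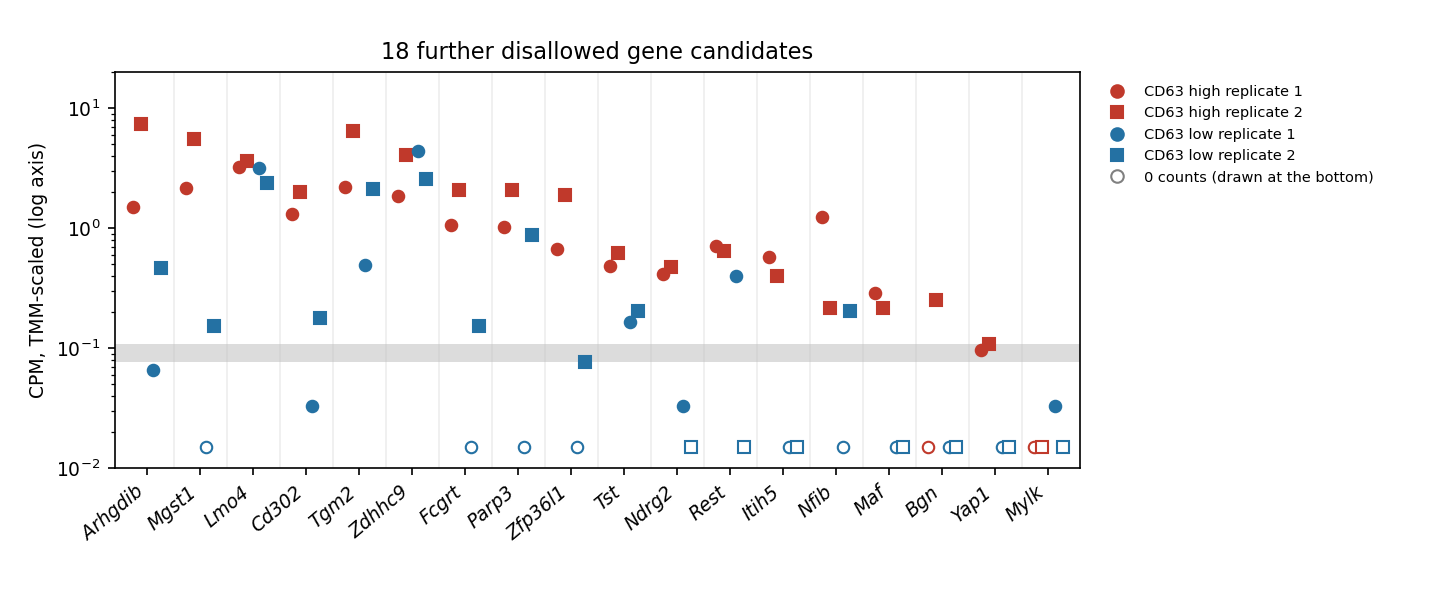
TMM-scaled CPM (log axis) of the 18 further candidates in each library, with symbols and grey band as for the 10 genes. Mgst1 and Arhgdib, which rose, have both CD63 high libraries above both CD63 low libraries, whereas Lmo4 lies between 2.36 and 3.61 CPM in all 4.

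Lists of silencing factors and of hypoxia response genes were examined beside the disallowed genes. DNA methylation by DNMT3A is known to silence Ldha and Hk1 as beta cells mature. Of 14 listed silencing factors edgeR called 0, with 2 at an unadjusted p under 0.05 (14.9% of all tested genes). DESeq2 and limma-voom called 0 of them (median of the fitted log2 values -0.12). Dnmt3a, named after its values were seen, stood at 33.6 ± 0.0570 CPM for CD63 high compared with 46.4 ± 0.0928 CPM for CD63 low cells (means with SD over n = 2, and a log2 fold change of -0.47, SE 0.20, edgeR adjusted p 0.303). Rbbp7 and Isl1, the most abundant of the list per length, had log2 fold changes of -0.07 and 0.27. Of 15 tested hypoxia response genes edgeR called 0, with 5 at an unadjusted p under 0.05 against the same 14.9%, and DESeq2 and limma-voom called 0. The glycolytic genes Aldoa and Eno1, the most abundant of that list per length, had log2 fold changes of 0.36 and 0.55 (edgeR adjusted p 0.461 and 0.232). Fitted log2 fold changes among the 15 ran from -0.79 to 0.94, the latter for Pfkfb3, named after its values were seen. The part of hypoxia in the values of Ldha was not tested.

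Several of these genes are also expressed by cells other than beta cells, and the marker lists of such cells differed between the groups. Ldha was highest in CD63 high replicate 2, next highest in CD63 high replicate 1 and lower in both CD63 low libraries. The macrophage, alpha, delta, gamma and acinar marker sums all shared that order. Within CD63 low, Ldha stood at 1.78 and 1.00 CPM in replicates 1 and 2. There the delta and gamma sums were likewise higher in replicate 1. The macrophage sum, at 27.9 and 41.3 CPM, and the alpha and acinar sums were higher in replicate 2. As a share of the macrophage sum, Ldha CPM was 5.42% and 6.91% in CD63 high replicates 1 and 2. In CD63 low replicates 1 and 2 it was 6.39% and 2.42%. Acot7, too, was higher in CD63 high replicate 2, at 0.289% and 0.361% of that sum in CD63 high replicates 1 and 2. Hk1 and Igfbp4 had the other order within the CD63 high group. Hk1 equalled 0.983% and 0.104% of the sum and Igfbp4 1.18% and 0.263%, since both were higher in replicate 1, where the macrophage sum was 165.6 CPM against 590 CPM. The part of macrophage RNA in these results was not tested.

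The other marker lists were as follows. Alpha cell markers summed to 5404 and 6097 CPM for CD63 high compared with 460.3 and 508 CPM for CD63 low libraries (2 of 8 tested rose), and delta cell markers to 452 and 889 against 73.4 and 43.8 CPM (3 of 3 rose, Lepr at 0). Gamma cell markers summed to 2349 and 4126 against 562 and 283 CPM (4 of 4 rose), acinar markers to 775 and 1374 against 24.3 and 318 CPM (2 of 10 rose), and duct markers to 3259 and 1992 against 1216 and 1166 CPM (1 of 9 rose, Cftr at 0). Each of these sums was higher in both CD63 high libraries than in both CD63 low libraries. Leaving out the most abundant gene of each list kept this for the alpha, delta, gamma, acinar and macrophage sums, but not for the duct sum. Spp1, osteopontin, which macrophages also express, carried the latter: the other 10 duct markers summed to 1253 and 1079 against 1088 and 1048 CPM, and the groups overlapped. Endothelial markers summed to between 6.10 and 9.001 CPM with Cdh5, Tie1 and Cldn5 at 0 in all 4 libraries. Stellate and fibroblast markers summed to 0.734 and 7.26 against 1.81 and 0.565 CPM with Thy1 at 0. Lymphocyte markers summed to 0.867 to 2.44 CPM and Schwann cell markers to 30.5 to 42.8 CPM over the 4 libraries. The groups overlapped in these last 4 sums. Beta cell markers summed to 535700 and 620400 CPM for CD63 high compared with 675900 and 483400 CPM for CD63 low libraries, and the groups overlapped. Of the 12 beta cell markers 4 fell (Mafa, Slc2a2, Glp1r and Slc30a8), against 0.287% of all tested genes called lower in CD63 high. None of the 12 rose, and none was at 0. The part of each of these cell types in the values of the 10 genes was not tested.

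**Figure D5:**
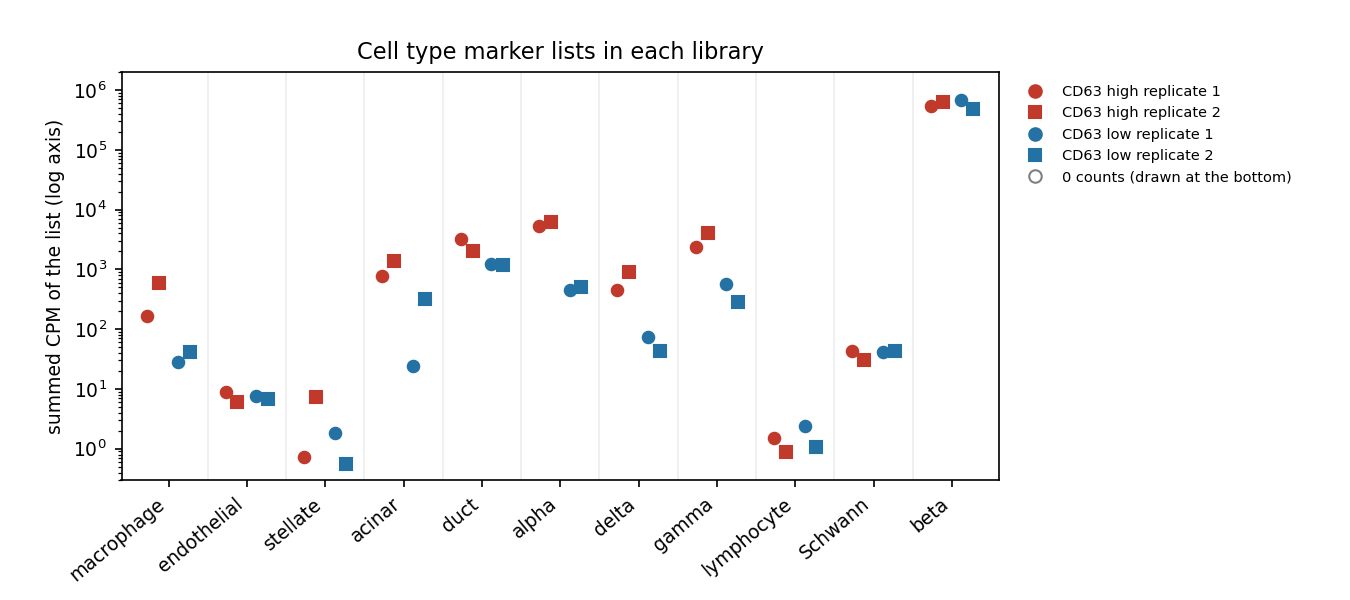
Summed TMM-scaled CPM (log axis) of each cell type marker list in each library, with CD63 high in red, CD63 low in blue, replicate 1 as circles and replicate 2 as squares; stellate stands for stellate cells and fibroblasts. Macrophage markers are highest in CD63 high replicate 2 (590 CPM), and alpha, delta, gamma and acinar markers are higher in both CD63 high libraries than in both CD63 low libraries.

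The genes whose pattern over the 4 libraries was nearest to each member were found by the distance between log2 levels centred on their mean, among 10158 genes. For Ldha these were Lgals1, C1qc and Fcgr3, at distances of 0.303 to 0.374 against a median of 3.82, and C1qc and Fcgr3 are known from macrophages. For Acot7 the nearest was C1qa (0.281, median 1.99), another macrophage gene. For Hk1 they were Ier2, Bst2 and Rbm20 (0.109 to 0.223, median 1.84), and for Igfbp4 Mapk4, Tifa and H2-Q7 (0.109 to 0.209, median 2.21), where Ier2 is an immediate early gene and Bst2 and H2-Q7 are known as interferon-responsive. Cat was nearest to Fgfr1, Pfkfb3 and Tmem63c (0.136 to 0.243, median 1.23), Oat to Glb1l, Slc35a3 and Cped1 (0.274 to 0.314, median 1.30) and Cxcl12 to Alox5ap, Ago4 and Khdrbs3 (0.0794 to 0.122, median 0.979). With 4 libraries such likeness is a description only. The added 0.5 shrinks changes near 0 CPM. The nearest genes of Hk1, Igfbp4, Acot7 and Cxcl12 therefore match a smaller change than the counts show. Fitted folds, for example, were 2.97 for C1qa and 40.8 for Acot7. Ldha and Acot7 had patterns with CD63 high replicate 2 on top, Hk1 had CD63 high replicate 1 on top, and Igfbp4 had the CD63 high libraries close together.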

How the data were processed

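The deposited values are raw fragment counts per gene name in each of the 4 libraries. They were made with featureCounts 1.6.2 in paired-end mode, per the file headers, without a strand option and on the mm10 annotation of Cell Ranger 3.0.0. Fragments with several alignments are not counted in that mode, which can lower Ldha through its pseudogenes. STAR 2.6.0c appears in the submitters' processing notes. The kit was SMARTer v4, per the labels' protocols, which mention no molecular identifiers.

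Genes were kept with filterByExpr (minimum count 10, total 15), TMM-scaled and compared in edgeR 4.0.16 (glmQLFit, glmQLFTest; R 4.3.3) without covariates, with Benjamini-Hochberg adjustment over all 13241 genes. A standard error is the absolute fitted change divided by the root of its F statistic. TPM was computed from the counts and the exonic lengths in the tables. The procedure was tested on simulated data. With 2 libraries a group, the smallest exact two-sided permutation p is 0.333. Replicates differed beyond sampling noise (chi-square per degree of freedom 31.1 in CD63 high, 61.2 in CD63 low). Promoter windows are from RefSeq and matched all 10 genes.

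The members and gene lists were chosen with earlier results of these data known. Named genes are all members, Cd63, the counterparts Ldhb, Slc16a3, Bsg, Hk2, Hk3 and Pdgfrb, and from each list the called genes (at most 5) and the 2 highest in TPM; others, such as Lmo4 and Itih5, were chosen after their values were seen. Some genes that this rule names are not reported here, though the counts of their lists include them. Marker lists are described by their sums. Alternatives were DESeq2 1.42.0, limma-voom (limma 3.58.1), library size scaling, a robust fit, other filters, a replicate block and leaving out each library.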

Additional observations from a re-analysis of the deposited data

How the results depend on the processing

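Over 12 alternatives all 7 tested members kept a positive log2 fold change wherever they were tested. The alternatives reuse the same counts. For Hk1, Igfbp4, Acot7 and Cxcl12 this direction was built into their entry to the main fit. The count of called members stayed between 2 and 4, except for 0 with library size as the only scaling, and was 3 without any 1 library, where Acot7 took the place of Hk1 without CD63 high replicate 1 or CD63 low replicate 2. The count of called genes over the whole table, 369 (331 higher, 38 lower), was 67 (66 and 1) with library size as the only scaling, 686 (534 and 152) with DESeq2, and 940 (690 and 250) with 1 count in any library as the filter. Leaving out 1 library gave 450 to 769 genes (378 to 512 higher, 56 to 257 lower), with the highest counts without CD63 low replicate 1; the arm left with 1 library is then assumed to vary like the other. Single genes were followed over the alternatives only for the members, Cd63, the called genes of the lists other than markers, Ldhb, Bsg, Hk2 and Hk3. Among these, leaving out 1 library turned the sign of 2 uncalled log2 fold changes. Ldhb ranged from -0.18 to 0.15 and Bsg from -0.028 to 0.25. The turns came without CD63 high replicate 2, and for Ldhb also without CD63 low replicate 2; their cause was not tested. With at least 1 CPM in 2 libraries as the filter, Hk1, Acot7 and Cxcl12 were not tested.

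The labels number replicates 1 and 2 in both groups but do not say that numbers pair libraries. The deposited files number the CD63 low libraries differently, as 2 and 3, so by file number CD63 high replicate 2 would match CD63 low replicate 1, as in the crossed block. Deviations of same-numbered libraries from their group means had a weak negative correlation (-0.15 across genes). With 2 libraries a group, the crossed pairing has the same value with the opposite sign by construction. With the replicate block 616 genes were called (535 higher, 81 lower) and 4 members (Acot7 was added), and with the crossed replicate block, chosen after seeing the data, 942 (607 higher, 335 lower) and 3 members. Depth limits Slc16a1, Pdgfra, Smad3 and Cxcl12, which had at most 17 counts in a library.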
